A study of Mus musculus with 40 samples.

Results

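The genes described here are 10 regulators of mitochondrial biogenesis, found by symbol among the 55401 genes of the count table. They are the coactivators Ppargc1a, Ppargc1b and Perm1, the estrogen-related receptors Esrra, Esrrb and Esrrg, the transcription factors Nrf1 and Gabpa, and the mitochondrial transcription factors Tfam and Tfb2m. Total RNA, depleted of ribosomal RNA, was sequenced from the renal cortex of 40 male C57BL/6J mice, 5 per group in 8 groups, each library from 1 animal. Akita mice were heterozygous for Ins2-Akita, a mutated insulin gene that causes diabetes, and WT mice were their littermates. No further allele is named for either genotype. In the ethanol arm, mice of both genotypes received the vehicle (10% ethanol in water) or MitoGamide at 10 mg/kg, a compound directed to mitochondria, by daily gavage from 6 to 22 weeks of age. In the water arm, mice of both genotypes received water or MitoQ, an antioxidant directed to mitochondria. The labels give the same treatment period for mice of all 8 groups, from 6 to 22 weeks of age, while the text that states it names only the ethanol vehicle and MitoGamide. The dose of MitoQ was not given in the sources used here. The Akita change is a point mutation of a gene of the pancreas, so these kidney counts could not check the genotype labels.

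PGC-1α, the product of Ppargc1a, and PGC-1β, the product of Ppargc1b, do not bind DNA themselves. They are recruited by transcription factors, among them the estrogen-related receptors, NRF1 and the GABP complex (also called NRF2), whose targets include respiratory chain subunits, enzymes of fatty acid oxidation and the genes Tfam and Tfb2m. TFAM packages mitochondrial DNA and, together with TFB2M and the mitochondrial RNA polymerase, starts its transcription. The tubule cells of the renal cortex, above all those of the proximal tubule, are rich in mitochondria, and PGC-1α is a main regulator of their oxidative metabolism.

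Promoters of the genes that the results turn on are shown first, because several of these regulators are described as targets of one another. RefSeq start sites on GRCm38.p6 were matched by symbol for 9 of the 10 genes, Esrrb, Esrrg and Nrf1 having more than 1. The 250 bases before each start were searched on both strands for GCATGCGC (the core of the NRF1 site), CGGAAG (the core bound by ETS factors such as GABPA), AAGGTCA (a half-site of estrogen-related receptors) and TGACGTCA (the cAMP response element). Over all 32851 promoters of this length, 2.26% held GCATGCGC, 13.6% CGGAAG, 4.08% AAGGTCA and 1.55% TGACGTCA. The letters were chosen after the sequences had been seen, so these shares do not test the matches. Each sequence below runs 5′ to 3′ on the strand of its gene, stops where annotated exons begin, and has matches in capitals. Tfam, Tfb2m and Gabpa, whose levels moved together between libraries, each held CGGAAG or its reverse complement CTTCCG, and Tfb2m held it 2 times. Their stretches lie at chr10:71238072-71238101 (minus strand), chr1:179546277-179546369 (minus strand) and chr16:84835020-84835049 (plus strand), and those of Tfam and Gabpa are 30 bases around a match that falls in an annotated exon.
Tfam: ctgccgcggacCGGAAGtccgggcttccca
Tfb2m: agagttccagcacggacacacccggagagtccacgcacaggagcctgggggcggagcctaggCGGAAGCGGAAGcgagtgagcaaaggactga
Gabpa: gagggtaagtgCTTCCGggtccctcagcta

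Ppargc1a, Perm1 and Esrrb, which were called higher in Akita mice, form the other set. Their stretches lie at chr5:51567727-51567975 (minus strand), chr4:156215677-156215867 (plus strand) and, for the first of the 2 starts of Esrrb, chr12:86360867-86361116 (plus strand). Perm1 held TGACCTT, the reverse complement of AAGGTCA, and the windows of Ppargc1a and Esrrb held none of the searched letters.
Ppargc1a: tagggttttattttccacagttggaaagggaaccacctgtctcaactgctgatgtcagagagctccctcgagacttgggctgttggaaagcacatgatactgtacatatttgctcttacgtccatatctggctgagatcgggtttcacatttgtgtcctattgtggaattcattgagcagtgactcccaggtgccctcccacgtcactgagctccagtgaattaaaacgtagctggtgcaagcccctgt
Perm1: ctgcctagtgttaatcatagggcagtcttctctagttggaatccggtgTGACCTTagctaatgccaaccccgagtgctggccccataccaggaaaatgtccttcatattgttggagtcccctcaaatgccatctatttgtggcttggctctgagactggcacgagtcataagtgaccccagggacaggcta
Esrrb: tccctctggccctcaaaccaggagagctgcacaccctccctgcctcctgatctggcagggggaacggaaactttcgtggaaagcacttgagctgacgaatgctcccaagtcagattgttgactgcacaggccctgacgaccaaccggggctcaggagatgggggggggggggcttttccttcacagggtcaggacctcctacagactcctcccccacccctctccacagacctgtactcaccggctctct

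Esrra is shown for its match of GCATGCGC, at chr19:6921814-6922058 (minus strand). No match was found in the windows of Esrrg or Nrf1. A match is a run of letters and not a measured binding site.
Esrra: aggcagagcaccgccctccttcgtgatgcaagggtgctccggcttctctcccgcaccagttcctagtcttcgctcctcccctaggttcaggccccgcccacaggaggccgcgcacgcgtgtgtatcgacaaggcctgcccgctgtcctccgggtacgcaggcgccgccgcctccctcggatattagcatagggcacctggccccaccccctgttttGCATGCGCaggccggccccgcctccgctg

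Libraries held between 9106654 and 24321424 estimated counts. The median Pearson r of a library's log2 CPM with the other 39 ranged from 0.890 to 0.976, and 3 libraries stood apart with a median r under 0.93, namely replicate 2 of Akita mice on water, replicate 3 of WT mice on water and replicate 3 of WT mice on MitoQ. Values without them are given where this changes a call of the 10 genes or a count of the pathway lists. All 8 listed markers of the proximal tubule, the main cell type of the cortex, had a mean of at least 10 counts, whereas none of the 6 adipocyte and none of the 6 muscle markers did. All 6 liver markers and 4 of 5 markers of inner medulla and papilla reached it. The liver sum, 585 to 2591 CPM, was mostly Apob and Cyp2e1, which kidney also expresses, with Alb at group means of 4.14 to 68.7 CPM. Arm and vehicle cannot be told apart from anything else that differed between the arms. In whole tissue, fewer cells of a type and less RNA per cell cannot be told apart either.

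All 10 genes had counts in every library, and all 10 passed the filter of a mean of 10 counts in each comparison. Levels are given in CPM, counts scaled to 1000000 per library after TMM normalisation. Divided by the length of all annotated exons, the highest mean level was that of Esrra with 14.3 ± 2.43 CPM per kb (SD, n = 40). Esrra was followed by Ppargc1a with 12.9 ± 2.02 and Esrrg with 11.7 ± 1.77 CPM per kb. These levels overlapped: Esrra exceeded Ppargc1a in 30 and Ppargc1a exceeded Esrrg in 24 of the 40 libraries. Next came Tfb2m (9.25 ± 2.76 CPM per kb), which exceeded Gabpa in all 40 libraries. Gabpa (5.32 ± 1.10), Tfam (4.95 ± 1.45), Ppargc1b (3.86 ± 1.35) and Esrrb (3.16 ± 0.868) lay close together, each above the next in only 27 or 28 of 40 libraries. Nrf1 (1.48 ± 0.251 CPM per kb) and Perm1 (1.03 ± 0.306 CPM per kb) were lowest, and Perm1 rested on 12 to 136 counts per library. With the longest transcript as the length, Esrrg ranked above Ppargc1a and Esrrb above Ppargc1b, and the order of the other genes was the same. The kidney level of Ppargc1b per length was thus below that of Ppargc1a by either length. Some of the 10 overlap other annotated genes: the 5′ end of Gabpa lies over Atp5j on the opposite strand, the 3′ end of Esrra over Trmt112 and the body of Tfb2m over a processed pseudogene. Reads from such stretches could be divided between the genes, and the strand setting of the counting was not given in the sources used here.

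**Figure D1:**
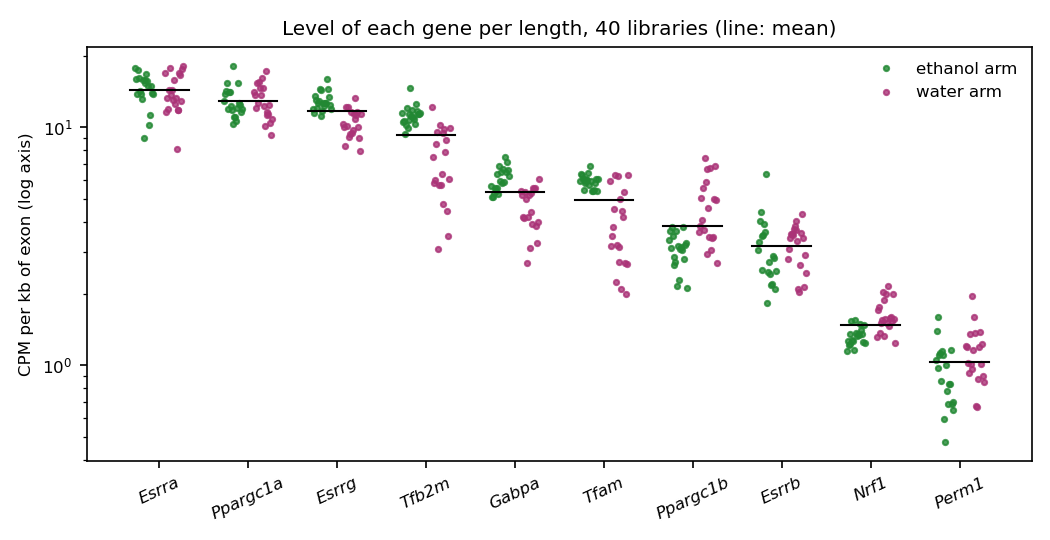
Level of each regulator in CPM per kb of exon on a log axis, with 1 point per library (20 of the ethanol arm, 20 of the water arm) and a line at the mean of all 40. Esrra, Ppargc1a and Esrrg lie highest and Perm1 lowest, and the points of Tfam, Tfb2m and Gabpa spread further in the water arm than in the ethanol arm.

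The first question was whether diabetes changed these regulators. In Akita mice on the ethanol vehicle, Ppargc1a, Esrrb and Perm1 rose, and in the fit over all 4 treatments the same 3 genes were called, all higher in Akita mice. By edgeR's quasi-likelihood test with Benjamini-Hochberg adjustment over all genes, 3 of the 10 were called with ethanol vehicle, where 16.4% of all genes tested were called and 8.18% were called higher. Over 4 treatments 3 of 10 were called, against 22.8% of all genes and 11.0% called higher. With water vehicle 0 of 10 were called (0.552% of all genes), with MitoGamide 1 of 10 (14.3%) and with MitoQ 0 of 10 (0.557%). At an unadjusted p under 0.05, 1 of the 10 differed with water and 0 with MitoQ. The 4 treatments share no libraries with each other, whereas the fit over all 4 uses the same libraries again and is no separate evidence.

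Ppargc1a (chr5:51454250-51567726, minus strand, GENCODE M21 on GRCm38), which encodes PGC-1α, measured 84.7, 90.6, 93.6, 101 and 78.9 CPM in the 5 Akita mice on ethanol vehicle and 68.0, 72.6, 72.7, 70.1 and 79.8 CPM in the WT mice. Of the Akita libraries, 4 lay above all WT libraries and 1 just below the highest of them. The log2 fold change was 0.32 ± 0.069 (adjusted p = 0.00643), or 1.25-fold. It was called without any single one of the 10 libraries, but not with all 40 libraries in one fit (adjusted p = 0.143). With water, Akita mice measured 103, 96.9, 90.1, 107 and 96.4 CPM and WT mice 75.3, 82.0, 68.4, 61.2 and 71.4 CPM. These groups did not overlap, and the log2 fold change of 0.46 ± 0.13 was larger than with ethanol, but edgeR did not call it (unadjusted p = 0.00375, adjusted p = 0.209), while DESeq2 did (adjusted p = 0.0118), as did edgeR with all 40 libraries in one fit (0.0178). With MitoGamide the log2 fold change was 0.17 ± 0.11 (adjusted p = 0.317) and with MitoQ 0.13 ± 0.14 (adjusted p = 0.918). Single libraries moved both values: that with MitoGamide was 0.070 without replicate 5 of the Akita mice and up to 0.24 without another library, and that with MitoQ was between 0.066, without replicate 2 of the WT mice, and 0.25 (adjusted p = 0.289), without replicate 3 of the WT mice, which stood apart. Neither was called without any single library. Ppargc1a was therefore higher in Akita mice by group mean in 4 of 4 treatments, by 0.26 ± 0.060 over all of them (adjusted p = 0.00117). The difference of the genotype effect between the vehicles was -0.14 ± 0.14 on the log2 scale (95% interval, from the SE and a normal distribution, -0.40 to 0.13).

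Ppargc1b, the closest relative of Ppargc1a, measured 13.4, 14.7, 12.4, 15.2 and 13.9 CPM in the Akita libraries on ethanol vehicle and 12.6, 9.13, 12.2, 12.6 and 12.1 CPM in the WT libraries, which overlapped by 1 library. Its log2 fold change of 0.27 ± 0.093 (adjusted p = 0.0695) was not called. It was called without replicate 3 of the Akita mice on ethanol vehicle (adjusted p = 0.0471). It was also called with each library's position on an axis of within-group differences as a covariate (0.26, adjusted p = 0.0456). That position, described below, can hold part of the difference tested. On water both groups were more spread, with 11.7 to 29.5 CPM in Akita and 10.8 to 27.6 CPM in WT mice, and the log2 fold change was 0.20 ± 0.29. Over 4 treatments it was 0.11 ± 0.11 (adjusted p = 0.549), with a 95% interval from -0.11 to 0.32.

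Perm1 (chr4:156215868-156221307, plus strand) encodes a muscle-enriched partner of PGC-1 and the estrogen-related receptors. It measured 4.09, 5.41, 3.81, 6.20 and 4.31 CPM in Akita mice on ethanol vehicle and 1.86, 3.89, 3.04, 2.68 and 3.24 CPM in WT mice. The groups overlapped by 1 WT library, and the log2 fold change was 0.71 ± 0.19 (adjusted p = 0.0221). The call was lost without replicate 2 or replicate 4 of the Akita mice on ethanol vehicle, with an adjusted p of up to 0.0569, and with all 40 libraries in one fit (0.0637). The log2 fold change was 0.31 with water, 0.32 with MitoGamide and 0.22 with MitoQ, none of them called, and these 3 values lay between 0.12 and 0.47 with a library left out. Over all 4 treatments it was 0.38 ± 0.11 (adjusted p = 0.0105), and without the 10 libraries on ethanol vehicle 0.30 (adjusted p = 0.158). The muscle markers Acta1, Ckm, Myh7, Tnnt3 and Actc1 stayed under a mean of 10 counts and Myh4 was at 0 in all 40 libraries.

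Esrrb (chr12:86361117-86521628, plus strand), which encodes the estrogen-related receptor β, had the smallest adjusted p of the 10 on ethanol vehicle and over 4 treatments. It measured 18.4, 19.9, 24.4, 26.6 and 21.1 CPM in Akita mice and 11.0, 14.9, 16.4, 14.7 and 13.1 CPM in WT mice on ethanol vehicle. Every Akita library lay above every WT library, and the log2 fold change was 0.66 ± 0.12 (adjusted p = 0.00207), or 1.58-fold. With MitoGamide, Akita mice measured 15.2, 21.4, 23.6, 22.0 and 38.6 CPM and WT mice 13.3, 17.5, 17.0, 12.6 and 15.1 CPM, a log2 fold change of 0.71 ± 0.20 (adjusted p = 0.0354). Here 1 Akita library overlapped the WT range and replicate 5 stood far above the rest. This call held without replicate 1 or replicate 5 of the Akita mice on MitoGamide and was lost without any other single one of the 10 libraries, with an adjusted p of up to 0.0869. With the axis position as a covariate it was 0.41 (adjusted p = 0.541), in a fit that called 205 of 16674 genes. With water Akita mice measured 21.3, 22.6, 23.4, 24.3 and 22.3 CPM against 26.1, 20.7, 12.9, 17.6 and 14.7 CPM, and the log2 fold change of 0.31 ± 0.18 (adjusted p = 0.844) was not called. Without replicate 1 of the WT mice on water this value was 0.49 (adjusted p = 0.430). With MitoQ the log2 fold change was 0.24 ± 0.17 (adjusted p = 0.818), and 0.16 to 0.37 with a library left out. Over all 4 treatments it was 0.47 ± 0.093 (adjusted p = 0.000165), at 0.69 (adjusted p = 0.000174) in the ethanol arm alone and 0.28 (adjusted p = 0.268) in the water arm alone. The difference of the genotype effect between the vehicles was 0.36 ± 0.22 and was not called (unadjusted p = 0.127). Without replicate 1 of the WT mice on water this difference was 0.19.

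**Figure D2:**
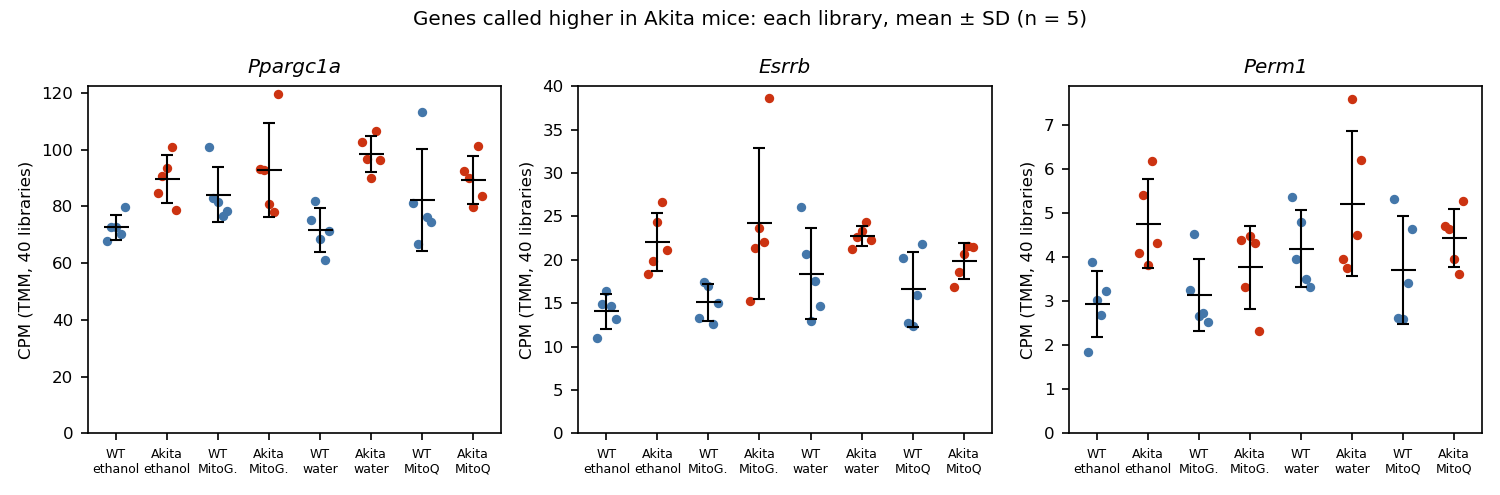
CPM (normalised by TMM over 40 libraries, axes from 0) of Ppargc1a, Esrrb and Perm1 in each of the 8 groups, with 1 point per mouse and the mean ± SD (n = 5). In each panel the mean of the Akita mice (red) exceeds that of the WT mice (blue) in all 4 treatments, and the ranges of Esrrb are apart with ethanol vehicle only.

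Markers of tubule segments also differed between the genotypes. The summed level of the 8 proximal tubule markers, all measured and none at 0, ranged from 12675 to 15654 CPM in Akita and 19462 to 25811 CPM in WT mice on ethanol vehicle, from 9773 to 17917 CPM in Akita and 22783 to 24454 CPM in WT mice with MitoGamide and from 8651 to 14046 CPM in Akita and 11829.6 to 21579.5 CPM in WT mice on water. That of the 5 markers of the distal convoluted and connecting tubule, all measured, ranged from 1745 to 2048 CPM in Akita and 1032 to 1762 CPM in WT mice, from 1693 to 3334 CPM in Akita and 1358 to 1584 CPM in WT mice and from 2339 to 2531 CPM in Akita and 1285 to 2297 CPM in WT mice in the same order. The 6 principal cell markers, all measured, ranged from 208 to 308 CPM in Akita and 188 to 235 CPM in WT mice, from 217 to 342 CPM in Akita and 154 to 202 CPM in WT mice and from 231 to 349 CPM in Akita and 191 to 267 CPM in WT mice. With MitoQ the ranges were 8506 to 17397 CPM and 11227 to 21388 CPM for the proximal and 1694 to 2365 CPM and 1083 to 2313 CPM for the distal sum (exact permutation p = 0.103 and 0.159), in Akita and WT mice. The principal cell sum did not overlap with MitoQ, at 226 to 289 CPM in Akita and 140 to 205 CPM in WT mice (exact permutation p = 0.00794). Proximal sums were thus lower and distal sums higher in Akita mice by group mean in all 4 treatments. By two-sided exact permutation tests in the first 3 treatments the p-values were 0.00794, 0.00794 and 0.0159 for the proximal, 0.0159, 0.00794 and 0.00794 for the distal and 0.0238, 0.00794 and 0.341 for the principal cell sum. The smallest p that 5 against 5 allow is 0.00794, and none of 150 such tests passed after Benjamini-Hochberg adjustment (lowest adjusted p = 0.0992). Over the 40 libraries, the log2 level of Esrrb had r = 0.69 with the principal cell sum, and 0.42 after each group mean was subtracted. With the distal and proximal sums it had r = 0.50 and -0.57, but 0.058 and -0.052 within groups. For Perm1 these values were 0.45 with the principal cell, 0.22 with the distal and -0.40 with the proximal sum, and 0.23, -0.29 and 0.17 within groups. Ppargc1a had r = 0.63 with the distal sum and -0.62 with the proximal sum, or 0.52 and -0.48 within groups. With the sum of 6 markers of the thick ascending limb, which was lower in Akita mice by group mean in all 4 treatments (exact permutation p = 0.0476 on ethanol vehicle, 0.00794 on water, 0.214 with MitoGamide and 0.111 with MitoQ), Ppargc1a had r = -0.66, and -0.49 within groups. The sum of the 5 podocyte markers, all measured, was higher in Akita mice by group mean in all 4 treatments (exact permutation p = 0.0317 on ethanol vehicle, 0.817 on water, 0.0476 with MitoGamide and 0.151 with MitoQ). Its r was 0.54 with Esrrb, 0.46 with Ppargc1a and -0.048 with Perm1, or 0.27, 0.38 and -0.49 within groups. The sum of 6 leukocyte markers, of which 4 had a mean of at least 10 counts, was lower in Akita mice by group mean in all 4 (p = 0.0159, 0.0635, 0.437 and 0.0397 in the same order, exact permutation tests), with r = -0.44, -0.25 and -0.43, or -0.14, 0.044 and 0.037 within groups. The part of these shifts in the levels of Esrrb, Ppargc1a and Perm1 was not tested.

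Esrra and Esrrg, the more abundant receptors of the family, were not called between genotypes in any treatment. Esrra (chr19:6910977-6921813, minus strand), the receptor ERRα, through which PGC-1α acts on oxidative genes, had a mean of 71.1 ± 6.74 CPM in Akita against 68.9 ± 2.95 CPM in WT mice on ethanol vehicle (SD, n = 5 each), and its log2 fold change over 4 treatments was 0.047 ± 0.067 (adjusted p = 0.683). Esrrg (chr1:187608791-188214885, plus strand), the receptor ERRγ, measured 76.9 ± 5.22 and 76.8 ± 2.49 CPM on ethanol vehicle, with -0.040 ± 0.054 (adjusted p = 0.659) over 4 treatments. The 95% intervals of the latter values, -0.085 to 0.18 for Esrra and -0.14 to 0.065 for Esrrg, do not reach the 0.26 of Ppargc1a, although the difference between genes was not tested.

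Of the factors downstream of PGC-1, none was called higher in Akita mice in these fits. Gabpa (chr16:84834925-84863779, plus strand), the DNA-binding subunit of GABP, measured 32.1, 28.9, 29.1, 30.0 and 31.5 CPM in Akita mice on ethanol vehicle and 33.7, 36.8, 33.2, 38.1 and 33.6 CPM in WT mice. All Akita libraries lay below all WT libraries, and the log2 fold change of -0.19 ± 0.062 (adjusted p = 0.0501) missed the threshold narrowly. DESeq2 called it (adjusted p = 0.0451), as did edgeR among genes with at least 10 counts in every library (0.0429) and without replicate 3 of the WT mice on ethanol vehicle (0.0469). Gabpa was lower in Akita mice by group mean in 4 of 4 treatments. Over 4 treatments Gabpa was at -0.15 ± 0.071 (adjusted p = 0.126), and at -0.18 (adjusted p = 0.0106) in the ethanol arm alone. Without replicate 2 of the Akita mice on water, which stood apart, the value over 4 treatments was -0.099 (adjusted p = 0.307). Nrf1 (chr6:30047988-30153458, plus strand), which encodes nuclear respiratory factor 1, was at -0.13 ± 0.067 (adjusted p = 0.209) on ethanol vehicle and -0.060 ± 0.060 (adjusted p = 0.536) over 4 treatments. Tfam (chr10:71225464-71238280, minus strand) had 26.7 ± 1.58 CPM in Akita against 26.0 ± 2.67 CPM in WT mice on ethanol vehicle, with a log2 fold change of 0.054 ± 0.076 (adjusted p = 0.692). On water Tfam was at 0.13 ± 0.39 on the log2 scale and was not called. With a library left out this value lay between -0.078 and 0.42, so single libraries set its direction. With the axis position as a covariate Tfam was called higher in Akita mice on water, at 0.40 (adjusted p = 0.0213). Tfb2m (chr1:179528055-179546267, minus strand) measured 29.3 ± 2.14 and 30.9 ± 1.54 CPM, with -0.062 ± 0.067 (adjusted p = 0.579). In the ethanol vehicle contrast the 95% intervals of Tfam (-0.096 to 0.20) and Tfb2m (-0.19 to 0.068) lay below the fitted value of Ppargc1a, but the difference between genes was not tested.

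The 13 mRNAs encoded by mitochondrial DNA, whose transcription TFAM and TFB2M start, took 5.39% ± 0.356 of all counts in Akita mice and 5.17% ± 0.272 in WT mice on ethanol vehicle (SD, n = 5 each, two-sided exact permutation p = 0.317). On water the shares were 3.49% ± 1.81 and 3.38% ± 1.56 (exact permutation p = 0.897). None of the 13 was called by edgeR in any contrast. DESeq2 called 1 of them, higher in Akita mice, on ethanol vehicle and 1 over 4 treatments, and edgeR called 3 there, all higher in Akita mice, without the 3 libraries that stood apart.

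The wider pathway was read from 4 lists, beside which the 22.8% of all genes called over 4 treatments can be set. Of 36 genes described as targets of PGC-1 or the estrogen-related receptors, 7 higher and 0 lower were called over 4 treatments, with a median log2 fold change of 0.11 beside -0.022 over all genes tested. The called targets with the smallest p were Ckmt1, a mitochondrial creatine kinase, at 0.39 ± 0.074 (adjusted p = 9.05e-05), Slc25a20, the carnitine carrier of the inner membrane, at 0.44 ± 0.10 (adjusted p = 0.00118), Hadha, of fatty acid β-oxidation, at 0.35 ± 0.091 (adjusted p = 0.00329), and the cytochrome c oxidase subunit Cox5b at 0.28 ± 0.081 (adjusted p = 0.0102). By treatment the counts were 5 higher and 0 lower with ethanol vehicle, 10 higher and 0 lower with MitoGamide and 0 with water or MitoQ, where 16.4%, 14.3%, 0.552% and 0.557% of all genes were called, in that order. Over all genes 1451 of 17747 were called higher with ethanol vehicle and 1286 of 16674 with MitoGamide. DESeq2 called 8 higher and 2 lower with ethanol vehicle and 15 higher and 0 lower with MitoGamide. DESeq2 called 3116 of 17747 genes over all with ethanol vehicle and 3082 of 16674 with MitoGamide, against 2910 and 2386 by edgeR. The summed level of olfactory receptor genes, by which the axis is oriented, was 249 to 445 CPM in Akita and 448 to 748 CPM in WT mice with MitoGamide, without overlap (exact permutation p = 0.00794), and its p was 0.230 with ethanol vehicle. Its part in these counts was not tested. With all 40 libraries in one fit 1 of the 5 and 2 of the 10 calls were kept, and with the axis position as a covariate all 5 and 1 of the 10. With MitoGamide, Ckmt1 differed by 0.61 ± 0.089 (adjusted p = 0.00158) and the ATP synthase subunit Atp5o by 0.45 ± 0.081 (adjusted p = 0.00504). In the ethanol arm alone, where 5386 of 17256 genes were called, 22 of the 36 were called higher and 1 lower, and in the water arm alone, where 785 of 18225 were called, none. Without the 3 libraries that stood apart 9 were called higher, in a fit that called 4559 of 17729 genes. Without the 10 libraries on MitoGamide, 2 of the 7 calls over 4 treatments were kept. All 7 genes were higher in Akita mice in each of 12 other settings of that fit.

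Of 18 further coactivators and DNA-binding partners, 3 higher and 4 lower were called over 4 treatments. Ppard, a nuclear receptor for fatty acids, was lower at -1.22 ± 0.15 (adjusted p = 5.10e-08). On water it measured 12.2 ± 2.59 CPM in Akita against 30.4 ± 8.46 CPM in WT mice (SD, n = 5 each), a log2 fold change of -1.33 ± 0.21 (adjusted p = 0.0159). The thyroid hormone receptors Thrb, at -0.38 ± 0.053 (adjusted p = 4.94e-07), and Thra, at -0.18 ± 0.050 (adjusted p = 0.00686), were lower as well. Foxo1, a transcription factor restrained by insulin, was higher at 0.19 ± 0.054 (adjusted p = 0.00872). Creb1, which binds cAMP response elements, was lower with ethanol vehicle, at -0.42 ± 0.086 (adjusted p = 0.00534). Its group mean was also lower in Akita mice with MitoGamide, at 31.8 against 41.2 CPM. It was higher in Akita mice on water (30.9 against 28.3 CPM) and with MitoQ (33.6 against 33.1 CPM). The 7 called genes had the same direction in each of the 12 other settings of the fit over treatments. Single treatments could differ: with MitoGamide the group mean of Thra was higher in Akita mice, at 32.3 against 30.7 CPM. In the water arm alone 3 of the 7 calls were kept. Without the 3 libraries that stood apart, in the same fit with 4559 of 17729 genes called, 4 were called higher and 6 lower.

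Of 25 genes that regulate the activity or amount of PGC-1, 3 higher and 3 lower were called. Ncor1, a corepressor of nuclear receptors, was lower at -0.31 ± 0.045 (adjusted p = 9.83e-07), and measured 213 ± 3.14 CPM in Akita against 284 ± 12.9 CPM in WT mice on ethanol vehicle. The AMP-activated kinase subunits Prkag2, at 0.42 ± 0.070 (adjusted p = 1.17e-05), and Prkab1, at 0.28 ± 0.070 (adjusted p = 0.00230), and Lpin1, a phosphatidate phosphatase that also binds PGC-1α, at 0.42 ± 0.096 (adjusted p = 0.000868), were higher. In the water arm alone 1 of the 6 calls was kept, and without the 3 libraries that stood apart 5 of 6, with 4 called higher and 2 lower. With ethanol vehicle, Prkag2 was at 0.38 ± 0.081 (adjusted p = 0.00670) and Ncor1 at -0.40 ± 0.054 (adjusted p = 0.000334). Of 21 genes of mitochondrial DNA transcription and replication, 1 higher and 3 lower were called. Mterf2, of the mitochondrial termination factor family, was higher at 0.42 ± 0.078 (adjusted p = 8.17e-05), and at 0.67 ± 0.15 (adjusted p = 0.0141) with MitoGamide. With the axis position as a covariate the latter call was lost and its direction stayed the same. That is the fit described for Esrrb with MitoGamide, which called few genes. Mgme1, a mitochondrial exonuclease, was lower at -0.25 ± 0.069 (adjusted p = 0.00678), and at -0.44 ± 0.11 (adjusted p = 0.0120) with ethanol vehicle. The helicase Twnk, at -0.21 ± 0.067 (adjusted p = 0.0203), and Mterf4, at -0.19 ± 0.064 (adjusted p = 0.0291), were also lower. With MitoQ the group mean of Twnk was higher in Akita mice, at 19.0 against 17.9 CPM. Of these 4 calls only that of Mterf2 was kept without the filter on low counts, without the 10 libraries on ethanol vehicle or without the 10 on MitoGamide, and none in the water arm alone.

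The second question was whether the compounds changed these regulators. None of the 10 was called with MitoGamide in Akita mice (1.26% of all genes called) or in WT mice (0%), nor with MitoQ in Akita (0%) or WT mice (0%) by edgeR, and DESeq2 called none either. At an unadjusted edgeR p under 0.05, 1, 2, 0 and 1 of the 10 differed in these contrasts. Leaving out any single library gave no call either. For all genes tested, the counts at an unadjusted p under 0.05 were 1841 for MitoGamide in WT mice, 363 for MitoQ in Akita and 575 for MitoQ in WT mice, and DESeq2 called 50, 0 and 2 genes. The genotype contrast on each vehicle and the contrasts of the compounds use the same vehicle libraries.

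Esrra had the lowest p in both WT contrasts. WT mice on MitoGamide measured 44.7, 49.6, 65.2, 61.1 and 60.5 CPM, all below the 67.3, 69.4, 73.5, 68.5 and 65.7 CPM of WT mice on the ethanol vehicle. The log2 fold change was -0.30 ± 0.094 (unadjusted p = 0.00734, adjusted p = 0.327). In Akita mice Esrra was at -0.28 ± 0.14 (adjusted p = 0.256) with MitoGamide, and the difference between the genotypes was 0.00649 ± 0.17. Without replicate 5 of the Akita mice on MitoGamide these values were -0.17 (adjusted p = 0.232) and 0.14 (adjusted p = 0.704). WT mice on MitoQ measured 55.2, 58.5, 35.5, 51.6 and 52.0 CPM and those on water 74.2, 72.8, 56.3, 76.8 and 79.3 CPM, a log2 fold change of -0.50 ± 0.16 (unadjusted p = 0.00815, adjusted p = 1.000). Replicate 3 was the lowest library of both groups and stood apart in both, and without these libraries the value was -0.45 (adjusted p = 0.993). The principal cell sum was lower in this contrast, at 140 to 205 CPM with MitoQ and 191 to 267 CPM on water (exact permutation p = 0.0317). Esrra had r = 0.41 with that sum, or 0.38 within groups, and the part of this shift in its level was not tested. For Esrra r was 0.25 with the proximal and -0.14 with the distal sum, or 0.70 and -0.45 within groups. The proximal sum had an exact permutation p of 0.913 in this contrast. In Akita mice on MitoQ Esrra was at -0.13 ± 0.14, and at -0.23 to -0.048 with a library left out. The group mean of Esrra was thus lower with the compound in all 4 contrasts, none of which was called. The compounds were given in different vehicles and the dose of MitoQ was not known, so they were not compared with each other.

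Ppargc1a was at 0.21 ± 0.077 with MitoGamide in WT mice (unadjusted p = 0.0184, adjusted p = 0.370) and at 0.053 ± 0.11 (adjusted p = 0.814) in Akita mice. Without replicate 1 of the WT mice on MitoGamide the WT value was 0.13 (adjusted p = 0.592). Ppargc1b was at -0.30 ± 0.13 in Akita mice on MitoGamide (unadjusted p = 0.0376, adjusted p = 0.211), with 11.3, 10.5, 10.9, 14.6 and 8.60 CPM against 13.4, 14.7, 12.4, 15.2 and 13.9 CPM on vehicle, which overlapped. The endothelial marker sum did not overlap in this contrast, at 269 to 392 CPM with MitoGamide and 212 to 256 CPM on vehicle, nor did that of smooth muscle and mesangium, at 89.6 to 122 CPM and 69.8 to 86.0 CPM (exact permutation p = 0.00794 in each, 0.0992 after adjustment over the 150 tests). The leukocyte sum was higher, at 26.0 to 34.5 CPM with MitoGamide and 19.7 to 29.5 CPM on vehicle (exact permutation p = 0.0397). The olfactory receptor sum was lower, at 249 to 445 CPM and 420 to 587 CPM (exact permutation p = 0.0317). Over the 40 libraries Ppargc1b had r = -0.81 with the endothelial, 0.094 with the smooth muscle and -0.61 with the leukocyte sum. Within groups these values were -0.69, 0.11 and -0.44. The part of these shifts in the level of Ppargc1b was not tested. The 3 genes called in Akita mice on ethanol vehicle were at 0.053 (Ppargc1a), 0.13 (Esrrb) and -0.32 (Perm1) with MitoGamide in Akita mice. Without replicate 5 of the Akita mice on MitoGamide these values were -0.041, -0.077 and -0.20, so that this library set the direction of the first 2. With 5 mice per group the 95% intervals over the 10 genes reached from -0.72 to 0.52 for MitoGamide and from -0.70 to 0.81 for MitoQ in Akita mice. None of the 10 was called for a difference of the MitoGamide effect between genotypes (0% of all genes called), of the MitoQ effect between genotypes (0%) or of the genotype effect between vehicles (0%) by edgeR or DESeq2, and 0 of 10 had an unadjusted edgeR p under 0.05 in each. For all genes, 1435, 207 and 767 had an unadjusted p under 0.05 in these tests, and DESeq2 called 0, 0 and 2.

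**Figure D3:**
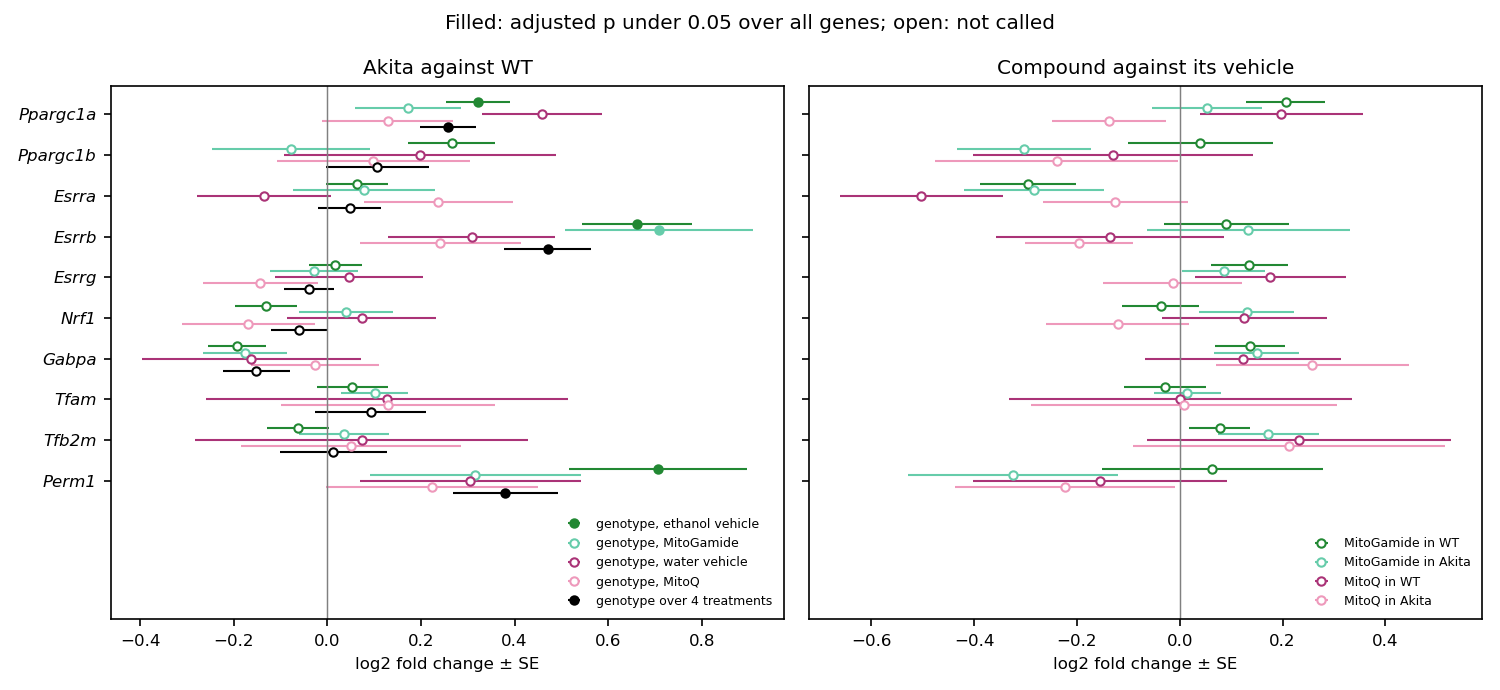
Log2 fold change ± SE of each regulator, on the left for Akita against WT mice in each treatment and over all 4, on the right for each compound against its vehicle. Filled points, which have an adjusted p under 0.05 over all genes, are seen only for Ppargc1a, Esrrb and Perm1 on the left and for none on the right.

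The third comparison was between the vehicles. In Akita mice Nrf1 was called lower with ethanol than with water (12.7% of all genes called), and none of the 10 was called in WT mice by edgeR or DESeq2 (0% of all genes by edgeR, with 4959 genes at an unadjusted p under 0.05 and 725 called by DESeq2). At an unadjusted p under 0.05, 5 of the 10 differed in Akita and 6 in WT mice. Nrf1 measured 11.8, 12.9, 12.5, 13.9 and 12.6 CPM with ethanol and 16.0, 20.9, 19.3, 13.6 and 16.1 CPM with water in Akita mice, overlapping by 1 water library. The log2 fold change was -0.41 ± 0.12 (adjusted p = 0.0458). It was called without replicate 1 or replicate 4 of the Akita mice on water and not without any other single one of the 10 libraries, with an adjusted p of up to 0.117. Without the library that stood apart, replicate 2 on water, it was 0.0965. Cell type markers moved with the vehicle too. In Akita mice the distal sum was 1745 to 2048 CPM with ethanol and 2339 to 2531 CPM with water, without overlap (exact permutation p = 0.00794), and in WT mice p was 0.111. The proximal sum was higher with ethanol in both genotypes (exact permutation p = 0.0317 in each), as was the sum of the endothelial markers (0.0159 in Akita and 0.0476 in WT mice). In Akita mice the thick ascending limb sum was higher and the smooth muscle sum lower with ethanol (exact permutation p = 0.0397 in each). The summed level of olfactory receptor genes was 420 to 587 CPM with ethanol and 604 to 1077 CPM with water in Akita mice, without overlap (exact permutation p = 0.00794), and its p was 0.0794 in WT mice. None of these passed adjustment over the 150 tests, and their part in the levels of the 10 genes was not tested.

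Tfam, Tfb2m and Gabpa were uneven among the mice on water. Tfam measured 23.7, 12.0, 8.85, 11.8 and 28.0 CPM in WT and 27.9, 9.93, 14.2, 27.6 and 12.0 CPM in Akita mice on water. In each group 2 libraries lay near the level of the ethanol arm and 3 far below it. In the 20 libraries of the ethanol arm Tfam kept between 23.9 and 30.4 CPM, a 1.27-fold range, against 8.85 to 28.0 CPM, a 3.17-fold range, in the water arm. Tfb2m measured 24.8, 12.5, 9.80, 17.1 and 27.8 CPM in WT and 26.7, 8.67, 16.1, 28.7 and 16.0 CPM in Akita mice on water, and its range was 1.56-fold in the ethanol and 3.94-fold in the water arm. Gabpa had ranges of 1.48-fold and 2.26-fold. The mean log2 fold change of ethanol against water was 0.53 ± 0.26 (adjusted p = 0.137) for Tfam, 0.60 ± 0.25 (adjusted p = 0.0976) for Tfb2m and 0.40 ± 0.17 (adjusted p = 0.101) for Gabpa in Akita mice, and 0.63 ± 0.28 (adjusted p = 0.176), 0.76 ± 0.25 (adjusted p = 0.149) and 0.45 ± 0.17 (adjusted p = 0.150) in WT mice. None of these was called, but single libraries decided the calls. Without replicate 1 of the Akita mice on water 6 of the 10 genes were called in Akita mice, and without replicate 4 of that group 5 of 10, in both cases with Tfam, Tfb2m and Gabpa higher and Ppargc1b and Nrf1 lower with ethanol. Calls over all genes rose in the same fits, from 2283 of 17928 to 6496 of 17953 and 6120 of 17763. Without replicate 5 of the WT mice on water 5 of 10 were called in WT mice, among them Tfam (0.90, adjusted p = 0.0254) and Tfb2m (0.96, adjusted p = 0.0186), while calls over all genes went from 0 of 18092 to 5216 of 18225. These 3 libraries had the highest Tfam levels of the 10 on water.

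Within groups these genes varied together, as did many others. After each group mean was subtracted, r over the 40 libraries was 0.91 between Tfam and Tfb2m, 0.89 between Gabpa and Tfb2m and 0.85 between Gabpa and Tfam. Within the ethanol arm the same values were 0.35, 0.50 and 0.032, and within the water arm 0.93, 0.93 and 0.92 (20 libraries each). For Ppargc1b the sign was opposite, with -0.84 against Tfam, as did Nrf1 with -0.71. Ppargc1a, by contrast, had r = -0.082 with Tfam and 0.023 with Ppargc1b. All these points share their libraries and normalisation, and 19.9% of all genes tested followed the same axis with an r beyond 0.8 in either direction. That axis is the first principal component of the within-group differences over 17759 genes without the 10 described here, held 32.0% of the within-group variance, and is oriented so that it rises with the summed level of olfactory receptor genes.

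The r with the position on the axis was -0.96 for Tfam, -0.89 for Tfb2m, -0.82 for Gabpa, -0.53 for Esrra, -0.48 for Esrrg, 0.83 for Ppargc1b and 0.76 for Nrf1. For the genes called between genotypes it was 0.23 for Ppargc1a, -0.16 for Esrrb and 0.016 for Perm1. Within the 20 libraries of the ethanol arm r was 0.50 for Ppargc1a, 0.50 for Esrrg, 0.12 for Gabpa, -0.10 for Tfb2m, -0.59 for Tfam, 0.39 for Ppargc1b and 0.68 for Nrf1. Within the water arm the same genes had 0.20, -0.67, -0.91, -0.94, -0.98, 0.90 and 0.80. The lowest Tfam level was that of replicate 3 of WT mice on water, which lay at 0.343 on the axis, with 2.73% of counts on mitochondrial mRNAs and 1304 CPM on olfactory receptor genes. Replicate 5 of the same group, with the highest Tfam level of the water arm, lay at -0.369, with 5.01% and 447 CPM. The axis position used as a covariate had gene weights from libraries outside the contrast, with the 10 genes included. Group means were not subtracted from it, so it can hold part of the difference tested. With it, Tfam was at -0.28 (adjusted p = 0.384) in Akita and 0.045 (adjusted p = 0.914) in WT mice for ethanol against water. Nrf1 was at -0.11 (adjusted p = 0.733) and Ppargc1b at 0.28 (adjusted p = 0.433) in Akita mice. None of the 10 was called for ethanol against water in that fit. The liver marker sum had r = -0.85 with Ppargc1b, 0.94 with Tfb2m, 0.89 with Tfam and 0.89 with Gabpa over the 40 libraries. What sets the axis was not tested.

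**Figure D4:**
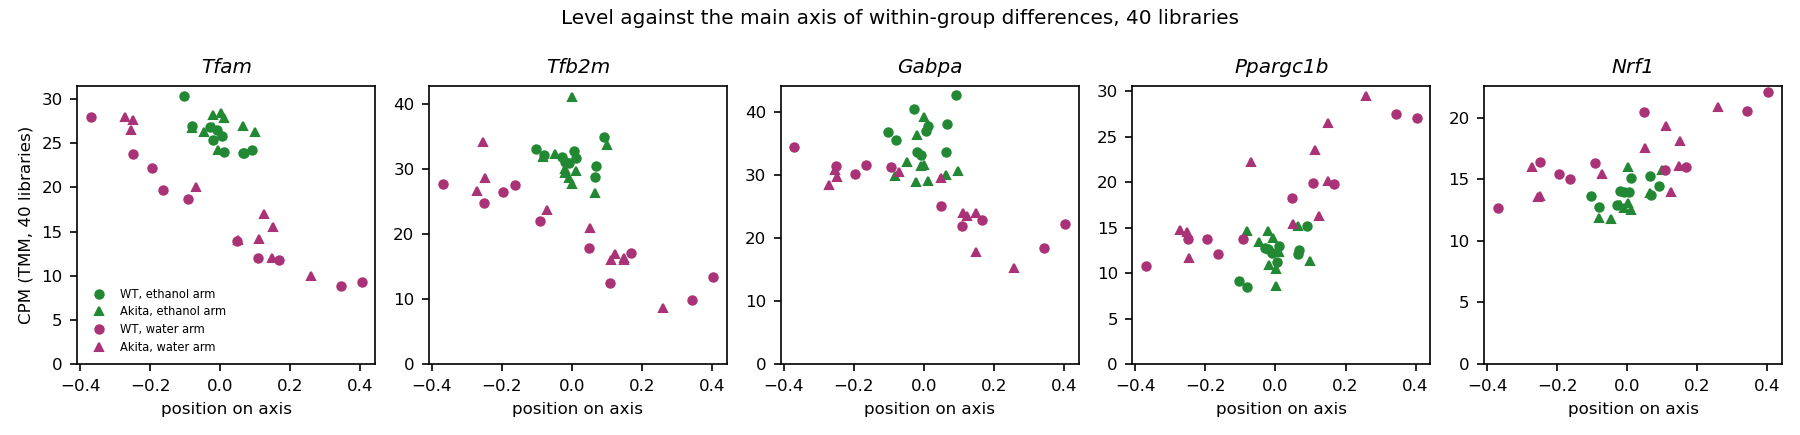
CPM (axes from 0) of Tfam, Tfb2m, Gabpa, Ppargc1b and Nrf1 against the position on the main axis of within-group differences, with 1 point per library (circles WT, triangles Akita, green ethanol arm, purple water arm). Tfam, Tfb2m and Gabpa fall and Ppargc1b and Nrf1 rise along the axis, on which the water arm spreads further than the ethanol arm.

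**Figure D5:**
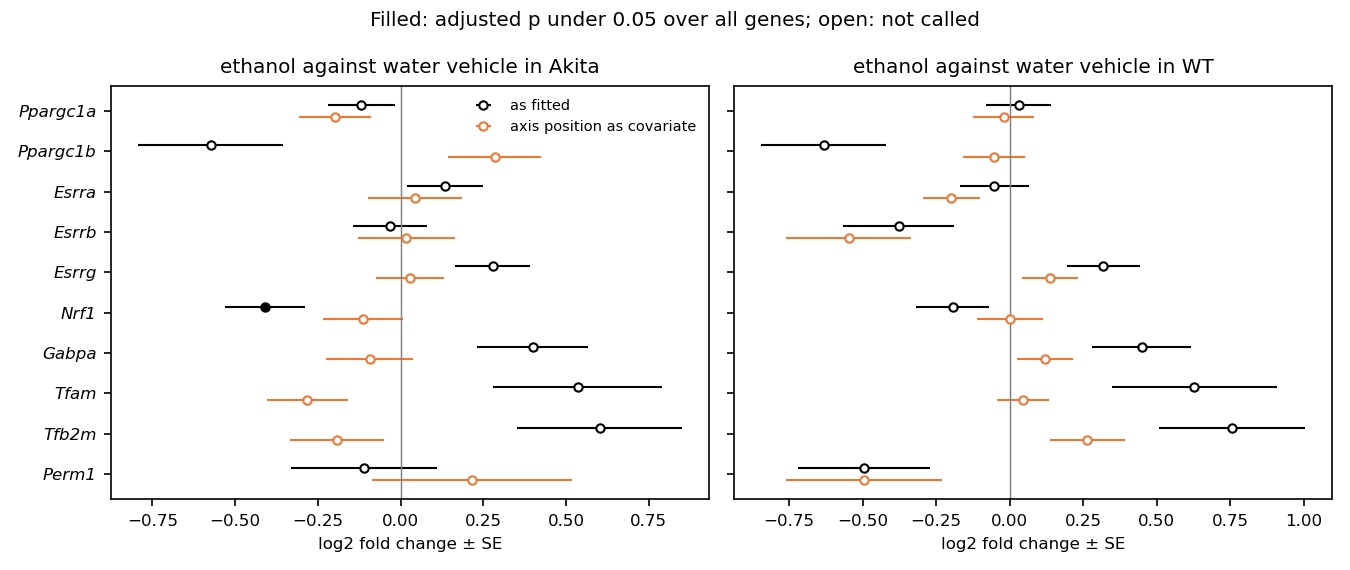
Log2 fold change ± SE of each regulator for ethanol against water vehicle in Akita and WT mice, as fitted (black) and with the axis position as a covariate (orange). Nrf1 in Akita mice is the only filled point (adjusted p under 0.05), and with the covariate Tfam, Tfb2m, Gabpa, Nrf1 and Ppargc1b lie nearer to 0 or on its other side in both genotypes.

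For each regulator the 3 genes with the most similar pattern were taken by Pearson r of log2 CPM over the 40 libraries, among 11151 genes that averaged 50 counts or more. For Ppargc1a they were Tlk2 (r = 0.84, within groups 0.75), Slk (r = 0.82, within groups 0.65) and Sult1a1 (r = 0.82, within groups 0.81). For Esrrb, St14 (r = 0.80, within groups 0.62) and Cd82 (r = 0.79, within groups 0.73) were among them. For Perm1 they were Fads6 (r = 0.69, within groups 0.47), Ftcd (r = 0.67, within groups 0.48) and Cnksr1 (r = 0.66, within groups 0.45), the weakest values of the 10. Tfam was followed most closely by Lamp1 (r = 0.98, within groups 0.97), Paics (r = 0.98, within groups 0.97) and Rpl30 (r = 0.98, within groups 0.96), Tfb2m by Sucla2 (r = 0.98, within groups 0.96), Lrrc19 (r = 0.98, within groups 0.96) and Aldh6a1 (r = 0.97, within groups 0.96), of which Sucla2 and Aldh6a1 encode mitochondrial enzymes, and Gabpa by Zfp148 (r = 0.96, within groups 0.92), Arl5a (r = 0.96, within groups 0.93) and Vma21 (r = 0.95, within groups 0.93). Ppargc1b was followed by Atxn7l2 (r = 0.93, within groups 0.88), Prr12 (r = 0.93, within groups 0.90) and Mlxipl (r = 0.93, within groups 0.92), of which Mlxipl encodes a glucose-responsive transcription factor. For Nrf1 they were Tmcc1 (r = 0.87, within groups 0.82), Git2 (r = 0.87, within groups 0.80) and Nxf1 (r = 0.87, within groups 0.84), for Esrra Pim3 (r = 0.87, within groups 0.82), Ogfod2 (r = 0.83, within groups 0.77) and Hspbp1 (r = 0.82, within groups 0.81), and for Esrrg Fnip1 (r = 0.87, within groups 0.79), Vcpip1 (r = 0.86, within groups 0.77) and Arsk (r = 0.86, within groups 0.72). These values share libraries and the axis described above and are given as a description.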

How the data were processed

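RNA of the renal cortex was sequenced in 40 libraries (5 mice in each of 8 groups, taken from the labels). The deposited values are estimated counts per gene, which the authors made by trimming 100-base single reads with Skewer, mapping them to GENCODE mouse transcripts with kallisto 0.46.1 (the genome build named in the submitters' processing notes is GRCm38) and summing transcripts per gene in R 4.0.2. They are whole numbers, neither filtered nor scaled nor pooled, and were used as deposited. Whether kallisto used the strand was not given in the sources used here.

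Only the 10 libraries of a contrast entered its fit, by edgeR 4.0.16 in R 4.3.3 (TMM normalisation, quasi-likelihood F test). Genes averaging under 10 counts were left out, and Benjamini-Hochberg adjustment ran over all genes tested, with a threshold of 0.05. The SE was derived from the log2 fold change and the root of F. Genotype over 4 treatments was fitted on 40 libraries with treatment as a term, and differences between effects on 20. Single values were compared by exact permutation tests over samples. CPM were normalised over all 40 libraries, and log2 CPM used a prior count of 2. Total counts of 9106654 to 24321424 leave Perm1 with as few as 12 counts in a library, which limits its precision. Motifs were searched in RefSeq promoters of GRCm38.p6, with the letters chosen after the sequences had been seen, and gene positions and exon lengths are those of GENCODE mouse release 21. Python 3.11.15 with pandas 2.3.3 was used for summaries. The fits were tested on simulated data.

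The 10 genes, the pathway and marker lists and the tests were chosen with earlier results of these data known. Named genes beyond the 10 come from a rule that took, per pathway list, up to 4 called genes with the smallest p over 4 treatments and up to 2 in any other contrast, and, for each of the 10, the 3 genes with the highest r. One gene this rule selects is not reported here. Alternatives were DESeq2 1.42.0, its size factors in edgeR, no filter, a floor of 10 counts per library, a joint fit of all 40 libraries, a block for replicate number, each library or treatment left out, another length and Spearman's rho. Added after seeing the data were leaving out the 3 libraries that stood apart, each arm alone, the axis position as a covariate (weights from libraries outside the contrast), and each library left out of the fit over 4 treatments. The authors' own test results were not used.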

Additional observations from a re-analysis of the deposited data

Results flagged for a closer look

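Within the 80 combinations of a gene and a group, 4 had 1 library farther from the others than Dixon's criterion for 5 samples allows, and chance gives about 4, or 1 in 20. In WT mice on MitoGamide, replicate 1 had 101.0 CPM of Ppargc1a, against 76.5 to 83.1 CPM in the other 4 libraries. In WT mice on ethanol vehicle, replicate 2 had 9.13 CPM of Ppargc1b, against 12.1 to 12.6 CPM. In WT mice on water, replicate 3, which also stood apart over all genes, had 56.3 CPM of Esrra, against 72.8 to 79.3 CPM. In WT mice on ethanol vehicle, replicate 5 had 15.3 CPM of Nrf1, against 13.6 to 14.0 CPM. Ppargc1a in WT mice with MitoGamide and Esrra in WT mice on water are among the values behind the contrasts of the compounds, none of which was called.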

How the results depend on the processing

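Of 3080 values of the 10 genes under an alternative, 2895 had the sign of the reported value. The sign changed in 3 cases where the reported unadjusted p was under 0.05, all for ethanol against water vehicle in Akita mice with the axis position as a covariate: Ppargc1b at 0.28, Gabpa at -0.093 and Tfb2m at -0.19. The cause was not tested. The number of the 10 genes called changed as follows, with the calls over all genes tested in brackets. Between genotypes on ethanol vehicle it was 1 (Esrrb) with all 40 libraries in one fit (844 of 17769 genes, against 2910 of 17747 as reported). It was 4 with DESeq2 (3116 of 17747 genes) and with at least 10 counts in every library (2901 of 15271), Gabpa being added. With the axis covariate it was 4 (Ppargc1b added, 3183 of 17747 genes), and with a library left out 2 to 4 (2170 to 2787 genes). On water it was 1 (Ppargc1a) with DESeq2 (354 of 18304 genes) and with all 40 libraries (547 of 17769). It was 2 (Ppargc1a and Tfam) with the axis covariate (968 of 18304 genes), and 0 with any library left out (32 to 94 genes). With MitoGamide it was 0 with the axis covariate (205 of 16674 genes) and 0 to 1 with a library left out (1248 to 2822 genes). For ethanol against water in Akita mice it was 0 without the filter (1352 of 35577 genes) and without the 3 libraries that stood apart (132 of 18024). It was 0 with the axis covariate as well (2 of 17928 genes), and 0 to 6 with a library left out (1 to 6496 genes). In WT mice it was 1 (Tfb2m) with all 40 libraries (1567 of 17769 genes) and 0 to 5 with a library left out (0 to 5216 genes). Over 4 treatments it was 0 in the water arm alone (785 of 18225 genes) and 4 in the ethanol arm alone (5386 of 17256), Gabpa being added. Without the water treatment it was 4 as well (Gabpa added, 4729 of 17585 genes), and without the ethanol treatment 2 (Perm1 lost, 2397 of 17778). It was 3 with any of the 40 libraries left out (3781 to 4381 genes).

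With the replicate block, the number was 0 for ethanol against water in Akita mice (0 of 17928 genes). Nrf1 lost its call there at -0.40, and no other call changed. In no contrast did all 5 same-numbered pairs correlate over 0.1, so the numbers were not taken to pair the mice. Every alternative planned could be run.

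With 5 mice per group the precision is limited, most of all for Perm1, which had the fewest counts, and in the water arm, where the spread was wide. Spearman's rho kept 0 to 2 of the 3 most similar genes of each of the 10.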
